A study of Mus musculus with 10 samples.

Results

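The fibroblast growth factor (FGF) genes described here are 87 probe sets for 39 genes, out of 45037 probe sets and 18193 named genes on the array. The rule selects probe sets by symbol and uses no level, although it was set with earlier results of these data known. They are the FGF ligands numbered on the array, the receptors Fgfr1 to Fgfr4 and Fgfrl1, the adaptor Frs3, the Flrt membrane proteins, and the feedback inhibitors of the Sprouty, Spred and Dusp6 families. The rule also names the adaptor gene Frs2, which no probe set with a single symbol represented here. RNA came from urogenital systems of mouse embryos at embryonic day 15.5, which hold the kidneys together with neighbouring tissues, and each of the 10 arrays carried 1 pool made from 1 to 2 urogenital systems. In 5 pools, called homozygous here, both copies of Wnt9b were the cneo allele (genotype label Wnt9bcneo/cneo). The 5 control pools have the genotype label Wnt9bcneo/+, so by that label they also carry 1 cneo allele, while their titles call them WT. Wnt9b encodes a Wnt signal made by the duct epithelium from which the ureteric bud grows, and what the cneo allele does to its transcript is not given in the labels.

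FGF ligands bind receptor tyrosine kinases together with heparan sulfate, and the activated receptor signals through Frs adaptors, Ras and the kinase ERK. ERK signalling in turn induces Sprouty, Spred and Dusp6 genes, whose products dampen the same pathway. In the embryonic kidney this pathway is known to keep nephron progenitors alive and to drive the growth of the ureteric bud, and the endocrine and intracellular FGF genes act outside this local signalling.

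Arrays differed within genotypes, and sex was uneven between them. Homozygous pool 5 and control pool 1 had the highest ratios of the 3′ to the middle actin probe set, which rise as RNA degrades: 97.67 and 94.77, with 9.87 to 33.13 on the remaining 8 arrays. Homozygous pools 3 to 5 had log2 levels of Xist from 13.75 to 14.27, and no other pool exceeded 6.07. Eif2s3y, a gene of the Y chromosome, read at most 16.2 in homozygous pools 3 to 5. It read 1861 or more in homozygous pools 1 and 2 and 1542 or more in control pools. No control pool thus had the female pattern, and sex cannot be fully told apart from genotype. For the genes described in full, and for several others, differences are given with and without homozygous pool 5 and control pool 1, and without homozygous pools 3 to 5. The latter fits compare only homozygous pools 1 and 2 with the control pools, so their adjusted p also reflects fewer arrays. Between 19.9% and 21.1% of probe sets were at or below an intensity of 16 on homozygous arrays, against 22.2% or more on control arrays. The titles of homozygous pools 1 to 4 end in CHP, and the labels do not say what the ending stands for. The brighter probe set of Wnt9b (GRCm38.p6, chromosome 11, 103727362 to 103775272) differed by -0.23 ± 0.36 on the log2 scale (SE; limma adjusted p = 0.803), which does not check the genotype labels, since the allele's effect on the transcript is unknown here. The dimmer Wnt9b probe set, at the floor on 6 arrays, had the opposite sign, with a difference of 0.43. Six2, a nephron progenitor marker, lay between 1452 and 6884 on the 10 arrays, while Cited1, another, was under the floor of 16 on 2 arrays and Hoxb7 of the ureteric bud on 4. No marker list used here had a gene at the floor on all 10 arrays.

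No FGF gene passed the test between genotypes. Of the 39 member genes 0 had an adjusted p under 0.05 in limma, while 0.967% of all genes did (176 of 18193), 0.539% higher and 0.429% lower in homozygous pools. At an unadjusted p under 0.05 there were 9 of the 39 (23.1%), against 15.7% of all genes. The difference was higher in homozygous pools for 23 member genes and lower for 14, with 2 at the floor throughout. Their median log2 difference was 0.11, beside 0 over all genes. Among the 87 probe sets 0 passed, against 0.231% of all probe sets, and 15 had an unadjusted p under 0.05 (17.2%, against 12.3%). The 5 pools of one genotype lay wholly apart from the 5 of the other for 3 member genes, Fgf1, Fgf15 and Fgfr3, all lower in homozygous pools (7.69%, against 4.71% of all genes, 2.61% higher and 2.1% lower). Among probe sets 5 of 87 were so separated (5.75%), 2 higher and 3 lower, against 3.29% of all probe sets, 1.78% higher and 1.51% lower. The count over all genes itself hinged on single pools, running from 3 without homozygous pool 3 or control pool 3 to 414 without control pool 2. An adjusted p above the threshold does not show equal levels, so 95% intervals are given for the genes below. These are bulk samples, in which fewer cells of a type and less RNA per cell cannot be told apart.

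**Figure D1:**
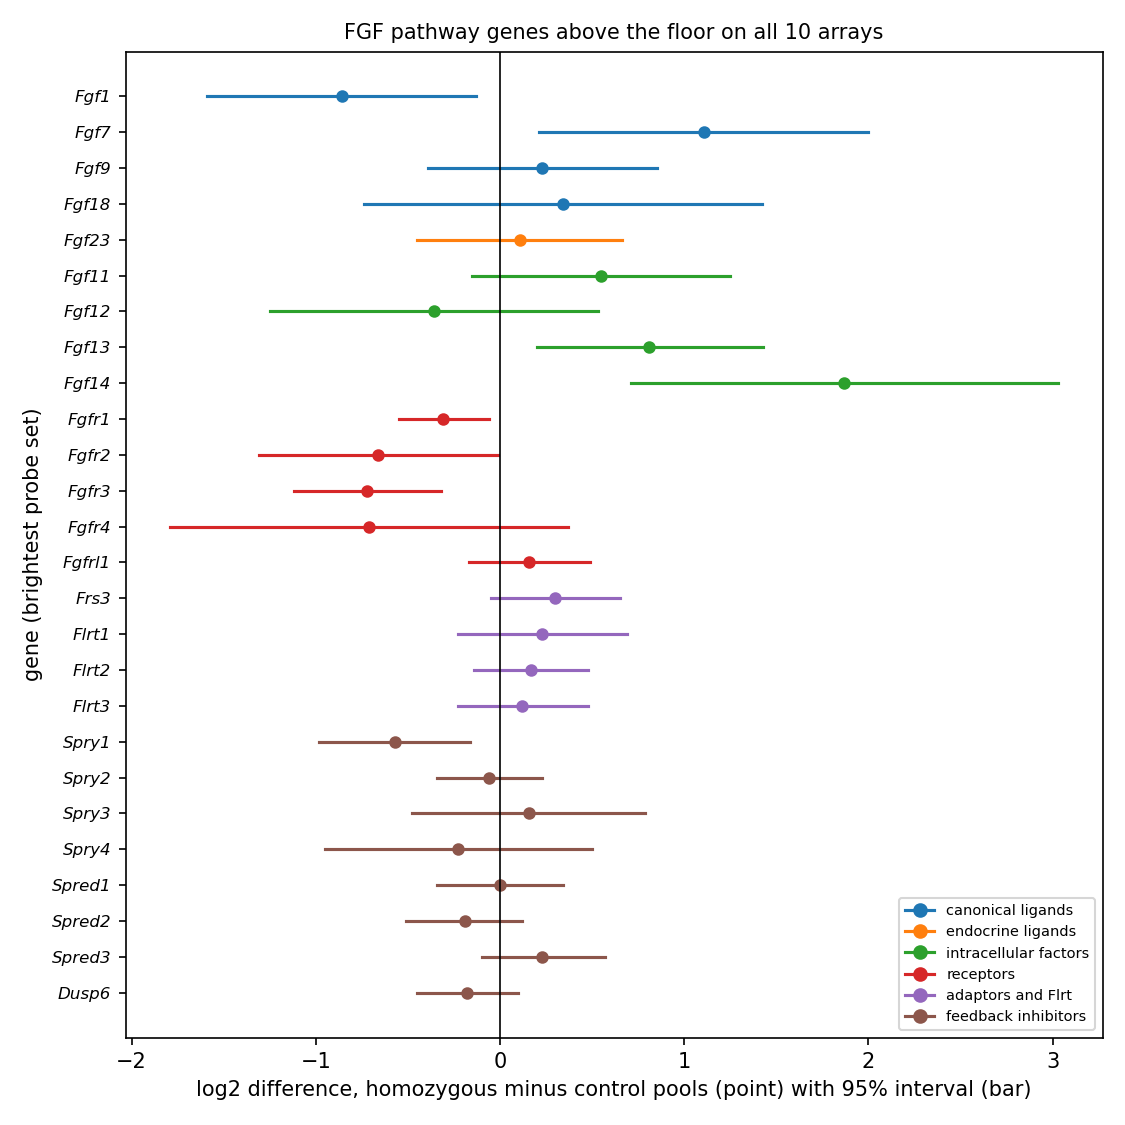
Log2 difference of homozygous minus control pools (horizontal axis) for the 26 member genes above the floor on all 10 arrays, each by its brightest probe set. Points are the fitted differences, bars their 95% intervals and colours the role; 15 points lie above 0 and 11 below, and Fgf14 (1.87) has the largest difference of either sign.

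Most of the secreted ligands were near or under the lower limit of the array. Intensities below 16 were set to 16 for the tests, and values under this floor have no order. Among 15 canonical ligand genes, which act locally on receptors, 4 (Fgf1, Fgf7, Fgf9 and Fgf18) lay above the floor on all 10 arrays. Another 9 were at the floor on some arrays, and Fgf2 and Fgf8 on all. Fgf8, a ligand of the early renal vesicle, read at most 2.98 on any array, and Fgf2 at most 15.6. Fgf20, a ligand of nephron progenitors, exceeded the floor in homozygous pool 2 (18.5) and control pools 3 (19.5) and 4 (18.6) and was under it in the other 7.

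Fgf10, a mesenchymal ligand of Fgfr2, measured under 16, 56.1, 20.8, 24.2 and 37.2 in homozygous pools 1 to 5 and 34.9, 17.9, 37.9, 32.3 and 23.03 in control pools 1 to 5. The ranges overlapped throughout, with a log2 difference of -0.01 ± 0.36 (SE; limma adjusted p = 1; 95% interval -0.82 to 0.80). At such levels a difference in Fgf2, Fgf8 or Fgf20 was not detectable.

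Fgf7 encodes a mesenchymal ligand for the epithelial form of Fgfr2 (GRCm38.p6, chromosome 2, 126034658 to 126091185). Its brighter probe set measured 340, 359, 411, 262 and 627 in homozygous pools 1 to 5, and 148, 194, 89.4, 415 and 167 in control pools 1 to 5. Only control pool 4 reached into the homozygous range. The means were 8.58 ± 0.46 (SD, n = 5) and 7.47 ± 0.80 (SD, n = 5), a log2 difference of 1.11 ± 0.40 (SE; limma adjusted p = 0.211; 95% interval 0.21 to 2.00). The dimmer probe set, 1422243_at, measured 82.2, 59.9, 68.0, 65.0 and 75.3 in homozygous pools and 21.5, 50.5, 27.2, 28.5 and 41.1 in control pools. In it the genotypes did not overlap, as in 1.78% of all probe sets in this direction. Its difference was also 1.11 (limma adjusted p = 0.0945 over all probe sets), and without control pool 2 it was 1.27 with an adjusted p of 0.0413. It passed in no other fit that left out 1 pool. The dimmer probe set did not pass without homozygous pool 5 and control pool 1, nor without homozygous pools 3 to 5. Over the brighter probe set the difference was 0.86 without homozygous pool 5 and control pool 1 and 0.98 without homozygous pools 3 to 5. Muscle markers were higher in homozygous pools too, in 13 of 13 genes of which 0 passed, with summed intensities of 44087 to 78820 against 11613 to 49345. Renal stroma markers, higher in 5 of 6 genes, summed to 17952 to 23625 against 18502 to 23793. The part of either tissue in the Fgf7 values was not tested.

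The stretch of 250 bases before the Fgf7 start is shown because it is the one of the ligands with the largest difference above the floor, and it is taken from RefSeq (GRCm38.p6). Capitals mark the core of TCF/LEF sites, the binding sites of the factors through which canonical Wnt signalling acts, searched as CTTTGA and CTTTGT on both strands.

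Fgf7 (chr2:126034408-126034657, plus strand): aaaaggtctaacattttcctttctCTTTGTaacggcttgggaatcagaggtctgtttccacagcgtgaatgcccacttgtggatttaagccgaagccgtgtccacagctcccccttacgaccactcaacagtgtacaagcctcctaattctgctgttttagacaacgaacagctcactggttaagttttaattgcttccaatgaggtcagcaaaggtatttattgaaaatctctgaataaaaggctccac

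This stretch held 1 match. Such a match was present in 27.6% of 32851 windows of this length before gene starts, and in 9 of 36 windows of member genes, leaving out those on chromosome 18. Counted by gene it was 9 of 29 (31.0%), a share not comparable with that of windows because some genes have several windows. A match is a string of letters and shows no binding.

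Fgf1, a ligand able to bind all FGF receptors, had pools that did not overlap. Its brightest probe set measured 232, 261, 165, 264 and 81.8 in homozygous pools and 275, 325, 406, 373 and 312 in control pools. The highest homozygous pool and the lowest control pool were close, at 264 and 275, and homozygous pool 5 was lowest by a wide margin. The difference was -0.86 ± 0.32 (SE; limma adjusted p = 0.236; 95% interval -1.59 to -0.13), and -0.64 without homozygous pool 5 and control pool 1 and -0.45 without homozygous pools 3 to 5. A second probe set above the floor differed by -0.37 and overlapped. Fgf1 was singled out after its values were seen, as were Fgf15 and Fgfr2 below.

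Fgf9, a ligand of nephron progenitors and of the developing testis, had probe sets of opposite sign. The brighter measured 71.6, 130, 120, 110 and 168 in homozygous pools and 94.0, 80.0, 74.7, 156 and 107 in control pools, a difference of 0.23 ± 0.28 (SE; limma adjusted p = 0.727; 95% interval -0.39 to 0.85). The other differed by -0.21. Both ranges overlapped widely, and testis markers themselves ran from 483 to 12364 in homozygous pools and from 449 to 10736 in control pools. The difference of the brighter probe set was 0.08 without homozygous pool 5 and control pool 1 and turned to -0.03 without homozygous pools 3 to 5. Fgf18 differed by 0.34 (95% interval -0.74 to 1.42), or 0.69 without homozygous pools 3 to 5.

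Among the 3 endocrine genes, whose products circulate and need a Klotho co-receptor, Fgf15 had the smallest p of any member gene in the fit over genes. In the fit over all probe sets its limma adjusted p was 0.086, above that of the Fgf14 probe set 1447480_at (0.0643). Fgf15 measured 17.3, under 16, 19.4, 30.6 and under 16 in homozygous pools, and 68.8, 32.2, 38.8, 50.9 and 44.4 in control pools. Homozygous pool 4 (30.6) and control pool 2 (32.2) all but met. The log2 difference was -1.24 ± 0.24 (SE; limma adjusted p = 0.0558; 95% interval -1.79 to -0.69), which understates any change because 2 homozygous arrays were at the floor. The gene passed without homozygous pool 4 (-1.41, adjusted p = 0.0418) and without control pool 2 (-1.36, adjusted p = 0.0321), the pools that all but met. It passed in no other fit that left out 1 pool. The difference was -1.02 (adjusted p = 0.114) without homozygous pool 5 and control pool 1 and -1.45 (adjusted p = 0.256) without homozygous pools 3 to 5. At a floor of 32 the difference was -0.51. Fgf21 was at the floor on 9 arrays, and Fgf23, the bone hormone that acts on phosphate handling in the kidney, differed by 0.11 (95% interval -0.45 to 0.66).

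**Figure D2:**
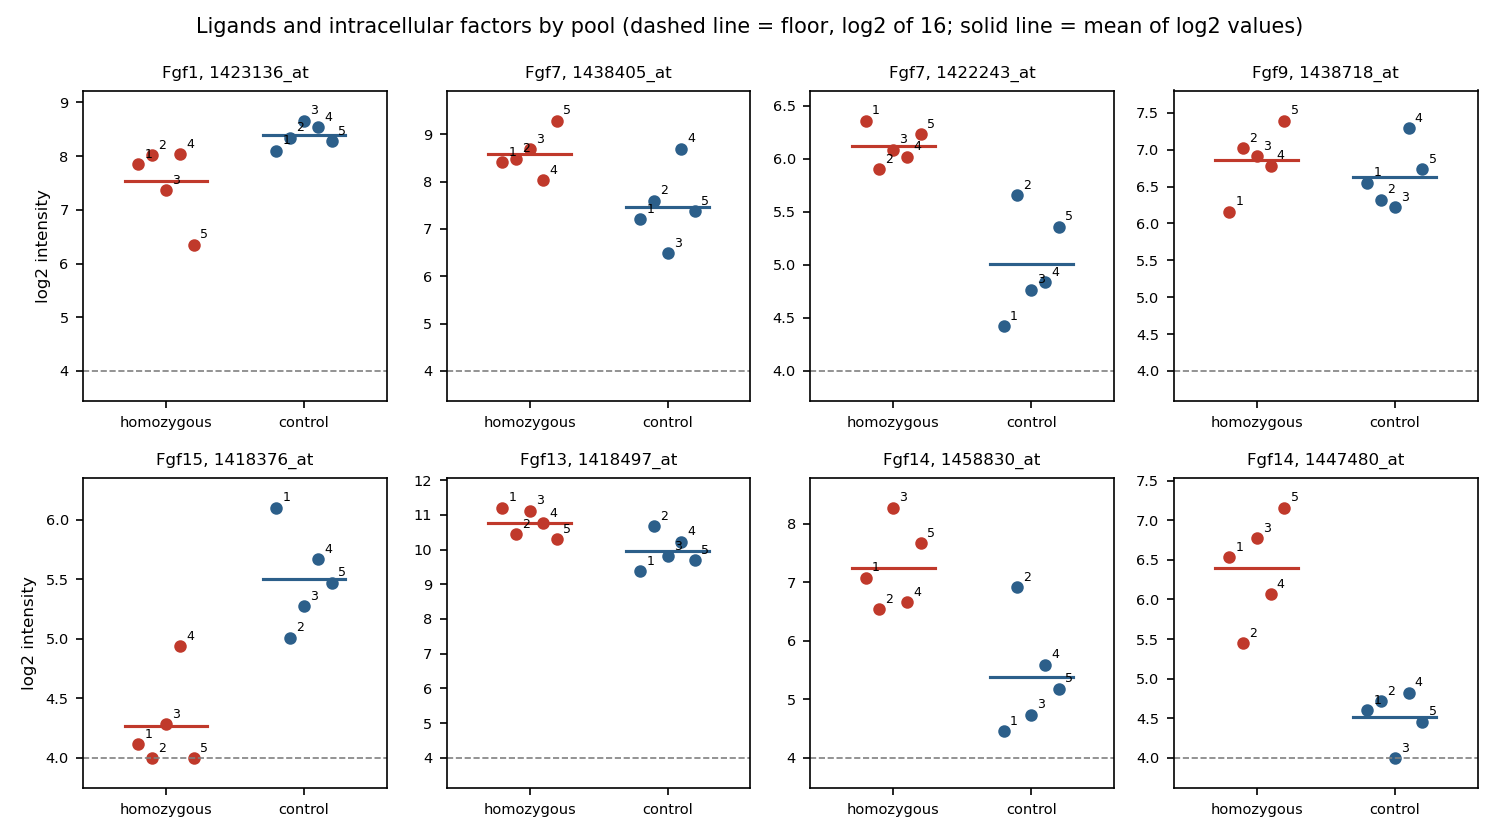
Log2 intensity (vertical axis) of 8 probe sets of ligands and intracellular factors in the 5 homozygous and 5 control pools. Points are pools with their number, solid lines the mean of log2 values and dashed lines the floor; the genotypes do not overlap for Fgf1, Fgf15, the dimmer Fgf7 probe set and the Fgf14 probe set 1447480_at.

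The intracellular factors Fgf11 to Fgf14 are not secreted and are known to bind voltage-gated sodium channels in neurons. None of the 4 passed, and 3 of the 4 had positive differences with a median of 0.68. Fgf14 (GRCm38.p6, chromosome 14, 123974441 to 124677686) measured 135, 93.2, 310, 101 and 204 in homozygous pools by its brightest probe set. Control pools measured 22.1, 120, 26.7, 48.3 and 36.3. Control pool 2 alone lay within the homozygous range. The means were 7.25 ± 0.73 (SD, n = 5) and 5.38 ± 0.96 (SD, n = 5), a difference of 1.87 ± 0.51 (SE; limma adjusted p = 0.117; 95% interval 0.71 to 3.03). Without control pool 2, the one overlapping pool, the difference was 2.25 and passed (adjusted p = 0.0367). It passed in no other fit that left out 1 pool. It was 1.53 (adjusted p = 0.220) without homozygous pool 5 and control pool 1 and 1.43 (adjusted p = 0.601) without homozygous pools 3 to 5.

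A second Fgf14 probe set, 1447480_at, measured 92.7, 43.5, 109, 67.1 and 143 in homozygous pools and 24.2, 26.3, under 16, 28.3 and 22.0 in control pools. Here the genotypes did not overlap and the difference was 1.88 ± 0.32 (SE; limma adjusted p = 0.0643 over all probe sets). It passed without homozygous pool 2 (2.11, adjusted p = 0.0265) and with each array centred on its median (1.94, adjusted p = 0.0406). It passed in no other fit that left out 1 pool. It did not pass without homozygous pool 5 and control pool 1, nor without homozygous pools 3 to 5. The remaining 2 probe sets of Fgf14, at the floor on 5 and 6 arrays, differed by 0.52 and -0.22. The mean over the probe sets of Fgf14 differed by 1.01 (adjusted p = 0.0797).

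Fgf13 (GRCm38.p6, chromosome X, 59062139 to 59585572) measured 2368, 1397, 2230, 1746 and 1261 in homozygous pools and 668, 1634, 900, 1198 and 824 in control pools. Control pool 2 again lay inside the homozygous range and the other 4 control pools below it. The difference was 0.81 ± 0.27 (SE; limma adjusted p = 0.182; 95% interval 0.20 to 1.43). It was 0.79 without homozygous pool 5 and control pool 1 and 0.87 without homozygous pools 3 to 5. A second Fgf13 probe set, at the floor on 3 arrays, differed by -0.07, and the mean of both by 0.37 (adjusted p = 0.470). Fgf11 differed by 0.55, and by 0.14 without homozygous pool 5 and control pool 1. Fgf12 differed by -0.36 in its brightest probe set and by 0.15 in each of 2 others above the floor, and the brightest turned to 0.25 without homozygous pools 3 to 5.

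Markers of sympathetic neurons and chromaffin cells, which make catecholamines beside the kidney, were higher in homozygous pools in 12 of 12 measured genes, of which 0 passed. Their summed intensity was 9459 to 23366 in homozygous pools and 905 to 6336 in control pools. By mean log2 level, control pool 2 was the highest control pool at 8.44, against 5.44 to 7.68 in the other 4 and 9.06 to 10.39 in homozygous pools. By that mean control pool 2 was the highest control, as it was for the brightest probe sets of Fgf13 and Fgf14. Single marker genes divided. Control pool 5 was above control pool 2 for Th, Chga, Chgb, Slc18a2 and Pnmt and below it for the others. For the Fgf14 probe set 1447480_at control pool 4 (28.3) was above control pool 2 (26.3). Homozygous pool 5, with a marker level of 9.09, had the highest value of that probe set (143). The same pool had the lowest homozygous value of Fgf13 (1261). The part of these cells in the Fgf13 and Fgf14 values was not tested. Glial markers summed to 1508 to 2189 in homozygous pools and 1140 to 2975 in control pools.

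Of the 5 receptor genes 4 had lower values in homozygous pools, with a median log2 difference of -0.66, and none passed. Fgfr3 (GRCm38.p6, chromosome 5, 33721724 to 33737068) encodes a kinase receptor best known from growing cartilage. It measured 485, 450, 291, 477 and 500 in homozygous pools and 731, 741, 739, 535 and 857 in control pools. All homozygous pools were below all control pools, and the nearest values were 500 and 535. The means were 8.76 ± 0.32 (SD, n = 5) and 9.48 ± 0.25 (SD, n = 5), a difference of -0.72 ± 0.18 (SE; limma adjusted p = 0.090; 95% interval -1.12 to -0.32). This is 1.65-fold higher in control pools. The difference was -0.76 (adjusted p = 0.144) without homozygous pool 5 and control pool 1 and -0.61 (adjusted p = 0.414) without homozygous pools 3 to 5. A dim second probe set, at the floor on 5 arrays, differed by -0.56.

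The RefSeq stretch before the first listed Fgfr3 start (GRCm38.p6) is given because this receptor separated the genotypes. It held no match to the TCF/LEF core letters, nor to CCGGAA, the core of sites of ETS factors such as Etv4, on either strand.

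Fgfr3 (chr5:33721474-33721723, plus strand): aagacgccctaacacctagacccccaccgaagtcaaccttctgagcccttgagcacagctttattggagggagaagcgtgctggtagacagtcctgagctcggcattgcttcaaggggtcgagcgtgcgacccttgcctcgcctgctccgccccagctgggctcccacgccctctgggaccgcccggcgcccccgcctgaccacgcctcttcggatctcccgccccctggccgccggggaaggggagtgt

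Fgfr2, the receptor of the ureteric bud for Fgf7 and Fgf10, measured 1248, 1756, 1007, 1735 and 789 in homozygous pools and 1155, 2513, 2494, 1929 and 2105 in control pools. Homozygous pool 5 and control pool 1 were the lowest of their genotypes. Without both, the difference was -0.68 (adjusted p = 0.152), against -0.66 ± 0.29 over all pools (SE; limma adjusted p = 0.313; 95% interval -1.31 to -0.01). Without the 3 Xist-high pools it was -0.41. A dimmer probe set above the floor differed by -0.35.

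Fgfr1, which acts with Fgfr2 in the kidney mesenchyme, measured 2002, 2261, 2141, 2369 and 2457 in homozygous pools and 3364, 2285, 2448, 2923 and 2960 in control pools. Control pools 2 and 3 lay within the homozygous range. The difference was small at -0.31 ± 0.11 (SE; limma adjusted p = 0.214; 95% interval -0.55 to -0.06), and a second probe set differed by -0.18. It was -0.27 without homozygous pool 5 and control pool 1 and -0.38 without homozygous pools 3 to 5. Fgfr4 spread widely in both genotypes, from 83.5 to 294 in homozygous and 145 to 504 in control pools, and differed by -0.71 (95% interval -1.79 to 0.37). Without homozygous pools 3 to 5 that difference was -0.06, and the other probe set above the floor differed by 0.03. Fgfrl1, a receptor without a kinase domain that is needed for kidney formation, differed by 0.16 (95% interval -0.17 to 0.49), while its second probe set differed by -0.33.

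**Figure D3:**
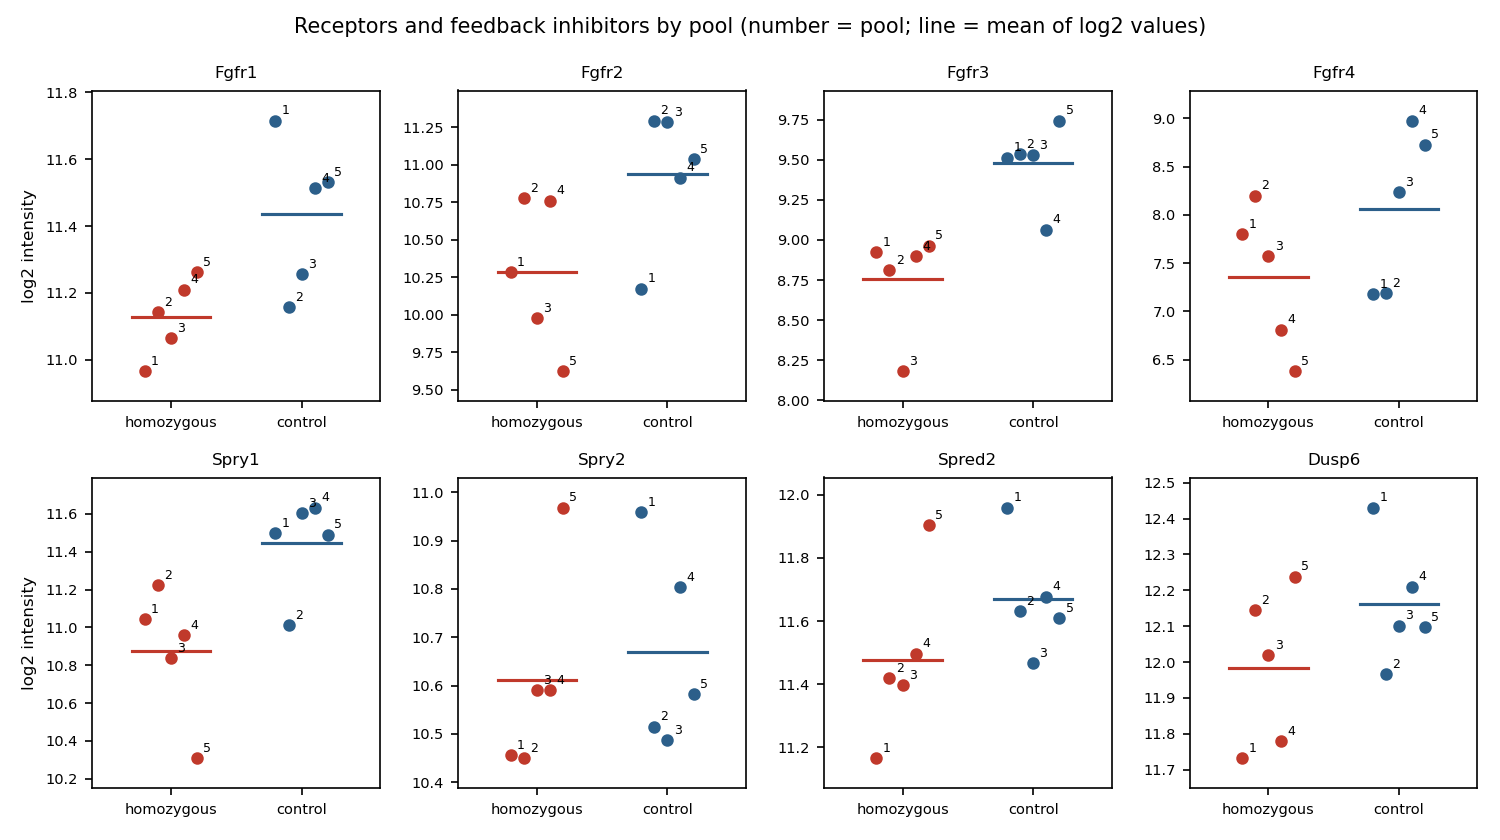
Log2 intensity (vertical axis, scaled to each gene) of 4 receptor genes and 4 feedback inhibitor genes in the 5 homozygous and 5 control pools. Points are pools with their number and lines the mean of log2 values; of these 8 genes the genotypes are fully apart for Fgfr3 alone.

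Kidney marker lists of epithelial lineages were mostly lower in homozygous pools beside the receptors, and renal stroma markers were higher in 5 of 6 genes (median 0.22, none past the threshold). Nephron progenitor markers were lower in 8 of 9 genes and summed to 10037 to 13194 in homozygous pools against 12679 to 25065 in control pools. Renal vesicle markers were lower in 7 of 7 genes, with sums of 12840 to 14414 against 13251 to 18856. Ureteric bud markers, which include Etv5 and Wnt9b, were lower in 6 of 9 genes, with sums of 3998 to 7000 against 7306 to 12778. Their mean log2 levels overlapped, at 7.66 to 8.33 against 8.30 to 8.68, and Calb1 alone of the list separated the genotypes. Mean log2 levels of renal vesicle markers did not overlap, at 9.69 to 10.21 against 10.32 to 10.76. No gene of these 3 lists passed by itself. Proximal tubule markers, given again with Kl below, were lower in 6 of 7 genes (median -1.27), and 4 of the 7 passed. The part of kidney cell numbers in the receptor and feedback values was not tested.

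The 8 feedback inhibitors were above the floor on all arrays, 5 with negative and 3 with positive differences, a median of -0.12 and none past the threshold. Spry1 (GRCm38.p6, chromosome 3, 37639947 to 37644599), which restrains Ret and FGF receptor signalling at the nephric duct, had the largest difference of them. It measured 2109, 2392, 1830, 1992 and 1270 in homozygous pools and 2894, 2068, 3109, 3178 and 2879 in control pools. Control pool 2 was the only control pool within the homozygous range, and homozygous pool 5 was lowest. The means were 10.87 ± 0.35 (SD, n = 5) and 11.45 ± 0.25 (SD, n = 5), a difference of -0.57 ± 0.18 (SE; limma adjusted p = 0.164; 95% interval -0.98 to -0.16). It was -0.42 (adjusted p = 0.214) without homozygous pool 5 and control pool 1, -0.31 (adjusted p = 0.646) without homozygous pools 3 to 5 and -0.53 (adjusted p = 0.0484) with array weights. The RefSeq stretch before its start (GRCm38.p6), shown because this inhibitor had the smallest p of its role, held no match to the TCF/LEF core letters or to CCGGAA.

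Spry1 (chr3:37639697-37639946, plus strand): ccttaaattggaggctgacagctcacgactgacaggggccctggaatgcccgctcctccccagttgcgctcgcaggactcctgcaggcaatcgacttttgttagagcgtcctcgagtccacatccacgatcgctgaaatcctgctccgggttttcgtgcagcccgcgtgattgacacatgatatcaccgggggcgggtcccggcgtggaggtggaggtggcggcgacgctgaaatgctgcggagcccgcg

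The other feedback genes differed less. Dusp6, a phosphatase that inactivates ERK, measured 3404, 4526, 4152, 3517 and 4830 in homozygous pools and 5520, 4002, 4396, 4739 and 4384 in control pools. The ranges overlapped and the difference was -0.18 ± 0.12 (SE; limma adjusted p = 0.540; 95% interval -0.45 to 0.10). Spry2, a Sprouty inhibitor expressed in many tissues, differed by -0.06 (95% interval -0.34 to 0.23) and Spry4, another of them, by -0.23 (95% interval -0.95 to 0.50). Without homozygous pools 3 to 5 these became -0.22 and 0.04. Spry3 and Spred3 differed by 0.16 and 0.23, and Spred2, which blocks activation of Raf by Ras, by -0.19 (95% interval -0.51 to 0.12), or -0.38 without homozygous pools 3 to 5. The adaptor gene Frs3 and the genes Flrt1, Flrt2 and Flrt3, whose products associate with FGF receptors and adhesion partners, had differences of 0.12 to 0.30, which without homozygous pools 3 to 5 turned to -0.13 for Flrt2 and -0.12 for Flrt3.

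Several probe sets per gene allowed a check within genes. Of the 24 member genes with more than 1 probe set, 14 had 2 or more above the floor on all arrays, and in 8 of these the probe sets had both signs. Spred1, a Ras pathway inhibitor with 8 probe sets, was the clearest case. Its 7 probe sets above the floor differed by -0.60 to 0.41 between the genotypes, and by 0.00 in the brightest. On homozygous pool 5 the probe set 1423160_at lay 0.89 above the mean of the other 4 homozygous pools while 1452911_at had a departure of -1.49. On control pool 1 the same probe sets departed by 0.69 and -0.90 from the other control pools. These are the arrays with the highest actin ratios. Over the 50 member probe sets above the floor, 25 departed by more than 0.5 (log2) from the other pools of the genotype on homozygous pool 5 and 20 on control pool 1, against 5 to 14 on the other 8 arrays. The part of RNA integrity in these departures was not tested.

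**Figure D4:**
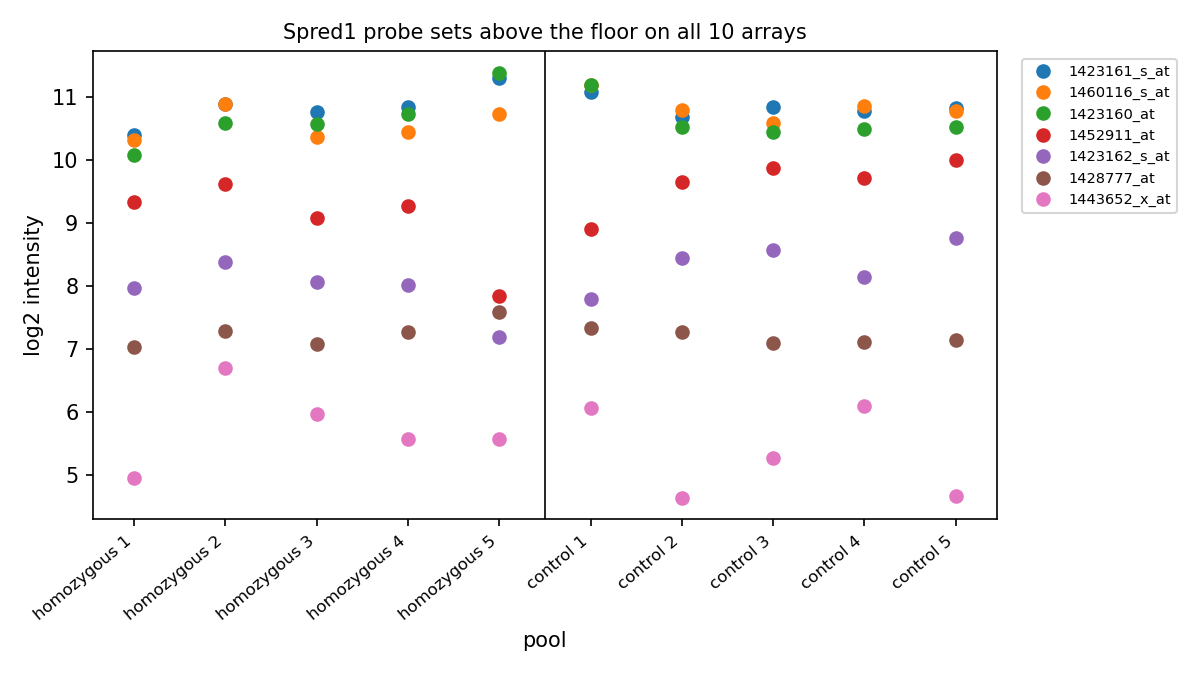
Log2 intensity (vertical axis) of the 7 Spred1 probe sets above the floor on all arrays, by pool (horizontal axis; the line parts the genotypes). On homozygous pool 5 and control pool 1 the probe sets 1452911_at and 1423162_s_at are at their lowest within the genotype while 1423160_at is at its highest.

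Other genes of FGF signalling did not pass either: of 57 listed partner genes 51 were measured, and 0 passed, with 24 higher, 27 lower and a median of -0.01. At an unadjusted p under 0.05 there were 13 (25.5%, against 15.7% of all genes). The genotypes did not overlap for 5 of the 51 (9.8%, against 4.71% of all genes). Of these Fos, Spsb1 (0.70) and Gab1 (0.61) were higher in homozygous pools, and Dusp4 and Kl lower. Among 15 measured ERK target genes the signs divided, 7 higher and 8 lower. Dusp4, a nuclear ERK phosphatase, measured 483, 531, 459, 562 and 380 in homozygous pools and 795, 631, 751, 913 and 713 in control pools. The genotypes did not overlap and the difference was -0.66 ± 0.13 (SE; limma adjusted p = 0.0558; 95% interval -0.95 to -0.36). Dusp4 passed without control pool 2 (-0.72, adjusted p = 0.0349) and in no other fit that left out 1 pool. It also passed (adjusted p = 0.0454) among the brighter genes, when 40% of genes had been dropped as dim. It was -0.56 without homozygous pool 5 and control pool 1 and -0.58 without homozygous pools 3 to 5.

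Etv4, an ETS factor induced in the ureteric tip, measured 52.5, 74.3, 57.4, 54.4 and 51.3 in homozygous pools and 100.2, 64.7, 102, 98.05 and 96.7 in control pools. Control pool 2 alone lay within the homozygous range. The difference was -0.67 ± 0.17 (SE; limma adjusted p = 0.0954), and -0.79 with an adjusted p of 0.0311 without that pool. The difference passed the threshold in no other fit that left out 1 pool. It was -0.59 without homozygous pool 5 and control pool 1 and -0.54 without homozygous pools 3 to 5. Its relative Etv5 differed by -1.40 (95% interval -2.87 to 0.08), or -0.39 without homozygous pools 3 to 5, and Il17rd, an inhibitor at the receptor, by -0.43. Both were picked after their values were seen, as was Fos, an early response gene, which differed by 1.49 and lay higher in all homozygous pools, with 3143 in pool 5 and 520 to 1024 in the other 4, against 243 to 445 in control pools. Its difference was 0.98 without homozygous pool 5 and control pool 1 and 0.93 without homozygous pools 3 to 5.

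Among 15 co-receptors and ligand carriers, the smallest p-values were those of Ncam1, a neural adhesion molecule that binds FGF receptors, and Kl, the co-receptor of Fgf23. Ncam1 differed by 0.28 (limma adjusted p = 0.0991), by 0.33 (adjusted p = 0.0485) without homozygous pool 2 and by 0.18 without homozygous pools 3 to 5. It passed in no other fit that left out 1 pool. Kl measured 84.5, 62.6, 58.0, 89.8 and 21.5 in homozygous pools and 134, 117, 225, 191 and 126 in control pools. The genotypes did not overlap, and the difference was -1.43 ± 0.40 (SE; limma adjusted p = 0.122; 95% interval -2.34 to -0.53). It was -1.13 without homozygous pool 5 and control pool 1 and -1.08 without homozygous pools 3 to 5. Kl is a gene of maturing tubules, and proximal tubule markers summed to 2044 to 3531 in homozygous pools against 5575 to 8751 in control pools, with 4 of 7 past the threshold. Their part in the Kl values was not tested. Of 21 cytoplasmic transducers measured, Cbl, a ubiquitin ligase for receptors, differed by -0.37 (adjusted p = 0.0864), or -0.20 without homozygous pools 3 to 5, and the docking protein gene Gab2 by 0.34 (adjusted p = 0.112).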

How the data were processed

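The authors deposited linear intensities, 1 for each probe set on each of 10 Affymetrix mouse arrays, measured from biotin-labelled cRNA per the labels' protocols. Its mean without the highest and lowest values was 500 on every array, and the summarization software is not given in the sources used here. No pair of arrays was identical. For this work intensities were floored at 16 and taken to log2, so folds of dim genes are understated. Gene symbols came from the platform's annotation: 34945 probe sets had 1 symbol, 932 several and 9160 none. Each gene was represented by its brightest probe set. The series design text describes another tissue and allele, so groups follow the sample titles. The test was limma's moderated linear model (limma 3.58.1, R 4.3.3; intensity trend, two-sided, Benjamini-Hochberg over all 18193 genes, or all 45037 probe sets apart from 64 controls, threshold 0.05), a fit tested on simulated data. P-values measure the spread between pools, whose small number limits precision.

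The members, the lists and the fits without particular pools were chosen with earlier results of these data known. Values on every array were given for the 6 members of smallest p above the floor, for Fgf2, Fgf7, Fgf8, Fgf9, Fgf10 and Fgf20 (as ranges where near the floor), and for Fgf1, Fgf15, Fgfr2, Dusp6 and the second probe sets of Fgf7 and Fgf14, picked after their values were seen. The 2 partner genes of smallest p in each role were named, and Etv5, Il17rd, Fos, Spsb1 and Gab1 after their values were seen. Alternatives concerned the floor, dim genes, scaling between arrays, the variance model, array weights, the replicate number as a block, Xist, the probe set per gene and leaving out pools. Genes on chromosome 18 are given without position or sequence.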

Additional observations from a re-analysis of the deposited data

Results flagged for a closer look

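In 11 of 78 groups of 5 pools, 1 pool stood apart from the other 4 by more of the group's range than Dixon's 95% limit (log2 values of the brightest probe set). Chance gives this in about 1 group in 20, and values near the floor of 4.00 give it more readily. Of genes well above the floor, Fgfr3 was at 8.18 in homozygous pool 3, with the next pool at 8.81, and Spry1 at 11.01 in control pool 2, with the next at 11.49. Spry2 was at 10.97 in homozygous pool 5 (next 10.59), Flrt3 at 10.49 in control pool 2 (next 9.95) and Fgf18 at 6.65 in homozygous pool 5 (next 7.79). Near the floor, Fgf3 was at 4.00 in control pool 5, Fgf4 at 5.05 and Fgf17 at 5.05 in control pool 4, and Fgf16 at 4.87 in homozygous pool 4. For Fgf20 in homozygous pool 2 (4.21) and Fgf21 in homozygous pool 5 (5.33) the other 4 pools were at the floor. No cause was tested for any of them.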

How the results depend on the processing

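Of the member genes 0 passed in the reported fit and in 11 of 12 alternatives other than leaving out single pools. Array weights gave 2 (Spry1 and Fgf15), and leaving out 1 pool gave 0 to 2. Member probe sets past the threshold were 3 with array weights, 1 with median centring and 0 to 1 when leaving out 1 pool. Partner genes were 6 with array weights, 1 without the dimmest 40% of genes and 0 to 2 when leaving out 1 pool. Over all genes, 176 in the reported fit became 94 at a floor of 32, 283 without the dimmest 40%, 951 with array weights, 109 with the mean of probe sets, 23 without homozygous pool 5 and control pool 1 (high actin ratio), 28 without homozygous pools 3 to 5 (high Xist), 13 with Xist as covariate, and 3 to 414 without 1 pool. With the replicate number as a block 1 gene and 0 members passed. Same-numbered pools did not deviate together (correlations of -0.55 to -0.17, and no pool matched its own number best). The labels name no pairing, and this check cannot exclude that same-numbered pools shared a litter or a day. The difference of Wnt9b turned to 0.03 without homozygous pools 3 to 5, 0.01 with Xist as covariate and 0.10 with the mean of probe sets, and ran from -0.43 to 0.09 without 1 pool. Fgf9 turned to -0.03 and -0.05 without those Xist-high pools and with Xist as covariate, and Fgf20 to 0.01 with that covariate. In fits chosen after seeing the data, leaving out homozygous pools 3 to 5 turned Fgf12 to 0.25, Spry4 to 0.04, Flrt2 to -0.13 and Flrt3 to -0.12. Fgf10 turned to 0.13 at a floor of 32, 0.05 with median centring, 0.09 without the Xist-high pools and 0.06 with Xist as covariate, and ran from -0.26 to 0.19 without 1 pool. Fgfr3, Fgf14, Spry1, Fgf13, Fgf7, Fgfr1, Fgf15, Fgf1 and Fgfr2 kept their sign in all alternatives that gave a value. The fit without the dimmest 40% left out Fgf2, Fgf8, Fgf9, Fgf10, Fgf14, Fgf15, Fgf20 and Wnt9b, and the mean of probe sets gives no count of probe sets. The cause of these changes was not tested. Intensities near the floor limit what can be said of most ligands.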
